A study of Mus musculus with 8 samples.

Results

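The subject here is 8 genes that encode cytosolic glutathione transferases, Gstp1 and Gstp2 of the Pi class, Gstm1, Gstm5 and Gstm7 of the Mu class, Gsto1 of the Omega class, Gsta4 of the Alpha class and Gstt1 of the Theta class. They are 8 of the 17652 genes that could be matched between all libraries, and they were picked from a list of symbols. The list was drawn up with earlier results of these same libraries in view. Which comparison led to it is not recorded, so the values of the 8 genes are given as descriptions, without p-values, in every comparison. The labels describe RNA-seq of the hippocampus of C57BL/6 mice in 8 libraries, 2 in each of 4 groups. The groups are mice with a CRISPR knockout of Pyk2 (KO), mice carrying the Y402F substitution in Pyk2 made with CRISPR (Y402F), wild-type controls of the knockout line (KO controls) and wild-type controls of the Y402F line (Y402F controls). Ptk2b is the gene of Pyk2, a tyrosine kinase, and the tyrosine that Y402F replaces is the residue on which the kinase phosphorylates itself. The deposit accompanies work on contextual fear memory. No label gives the age of the mice or which part of Ptk2b was removed, and none states if the RNA of a library came from 1 mouse or several.

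Glutathione is a small peptide that cells use to neutralise reactive compounds. Glutathione transferases join it to electrophilic molecules, such as products of lipid peroxidation and many foreign chemicals, which are then exported or broken down further. The cytosolic enzymes fall into classes by sequence. In brain, Mu class protein is known mainly from astrocytes and Pi class protein is a common histological marker of oligodendrocytes, and many genes of the family respond to the transcription factor Nrf2 through antioxidant response elements.

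Near-identical copies matter for how the Pi and Mu values can be read, so their sequences come first. Gstp1 (chr19:4035407-4037985, minus strand, GRCm38) and Gstp2 (chr19:4040285-4046023, minus strand) lie side by side, and their coding sequences differ at 12 of 630 bases. The processed pseudogene Gstp-ps on chromosome 1, a copy of a spliced transcript, is 99.2% identical to the coding sequence of Gstp2 and 97.6% identical to that of Gstp1. The first 90 coding bases hold 6 of the 12 differences between Gstp1 and Gstp2. In the lines below, from GENCODE M21, capitals in Gstp1 and Gstp2 mark the bases at which those genes differ, and capitals in Gstp-ps mark its differences from Gstp1. The pseudogene line covers coding bases 3 to 90.
Gstp1: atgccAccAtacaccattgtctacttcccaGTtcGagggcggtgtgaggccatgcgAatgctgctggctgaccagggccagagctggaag
Gstp2: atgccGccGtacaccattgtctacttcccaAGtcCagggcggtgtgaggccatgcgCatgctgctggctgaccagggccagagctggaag
Gstp-ps: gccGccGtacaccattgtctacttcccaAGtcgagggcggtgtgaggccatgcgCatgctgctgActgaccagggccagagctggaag
Beyond such stretches, the longest run without a difference between Gstp1 and Gstp2 is 300 bases. Of the 772 stretches of 50 bases in the Gstp1 transcript, 62.3% also occur in the transcript of another gene, and 72.6% of the 748 in Gstp2 do.

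Gstm1 (chr3:108012255-108017973, minus strand) has a processed pseudogene of its own, Gstm2-ps1 on chromosome 5, whose copy is 97.9% identical to the Gstm1 coding sequence. The neighbouring gene Gstm3 is 89.4% identical to it. Coding bases 389 to 478 of Gstm1 show what this means for a read, because these 90 bases occur without a single difference in Gstm1, Gstm2-ps1 and Gstm3, so nothing is in capitals.
Gstm1: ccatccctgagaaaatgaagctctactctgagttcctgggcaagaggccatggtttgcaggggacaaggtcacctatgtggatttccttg
In Gstm1 23.1% of the stretches of 50 bases occur in another gene. In Gstm5 (chr3:107895821-107898686, plus strand) 14.4% do, all of them shared with 4933431E20Rik. The transcripts of Gstm7 (chr3:107926334-107931817, minus strand), Gsto1 (chr19:47854970-47864790, plus strand), Gsta4 (chr9:78182774-78209349, plus strand) and Gstt1 (chr10:75783813-75798584, minus strand) share none. The values of Gstp1, Gstp2, Gstm1 and Gstm5 are uncertain to the extent that the authors' counting divided shared reads between copies, or did so differently in the 2 kinds of table.

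The mutant tables hold expected counts, which are estimates of the reads from each gene, and FPKM, which are fragments per length of transcript and size of library. The control tables hold FPKM only. Expected counts summed to between 5756180 and 6017219 per mutant library, and the read depth of the controls is not given. All levels below are scaled FPKM, meaning FPKM divided by 1 size factor per library (0.942 to 1.05), and all log2 differences between groups are of scaled FPKM plus 1 unless expected counts are named. The mutants were all read from one kind of table and the controls from the other, so genotype and processing cannot be told apart when a mutant is compared with its controls. Ptk2b was at 56.1 and 68.7 in KO and at 308 to 396 in the other 6 libraries. The Y-linked gene Ddx3y was at 0.0695 or less in KO replicate 1, Y402F replicate 1 and both KO controls, and at 4.74 to 5.77 in the other 4 libraries. Ttr, a choroid plexus gene, was high in both Y402F controls (1015 and 1032) and in Y402F replicate 2 (656) and lay between 1.19 and 10.2 in the rest. Nothing in the labels separates animals within a group, so p-values of other genes describe how these libraries vary, and that variation may be technical, and in bulk tissue fewer cells of a type and less RNA per cell cannot be told apart.

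All 8 genes reached the minimum mean of 1 FPKM and entered the fits, in which 12938 genes were tested. Gstp2 entered only through the control libraries, where it was high. The genes spanned a wide range of levels. Gstm1 was the most abundant of the 8 in each group, ranking 96 among the 12938 genes in KO controls and 256 in Y402F. Gstm5 ranked between 189 and 342 and Gstp1 between 261 and 537. Gsto1, Gsta4 and Gstm7 were moderate, and Gstt1 ranked between 7518 and 9113.

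**Figure D1:**
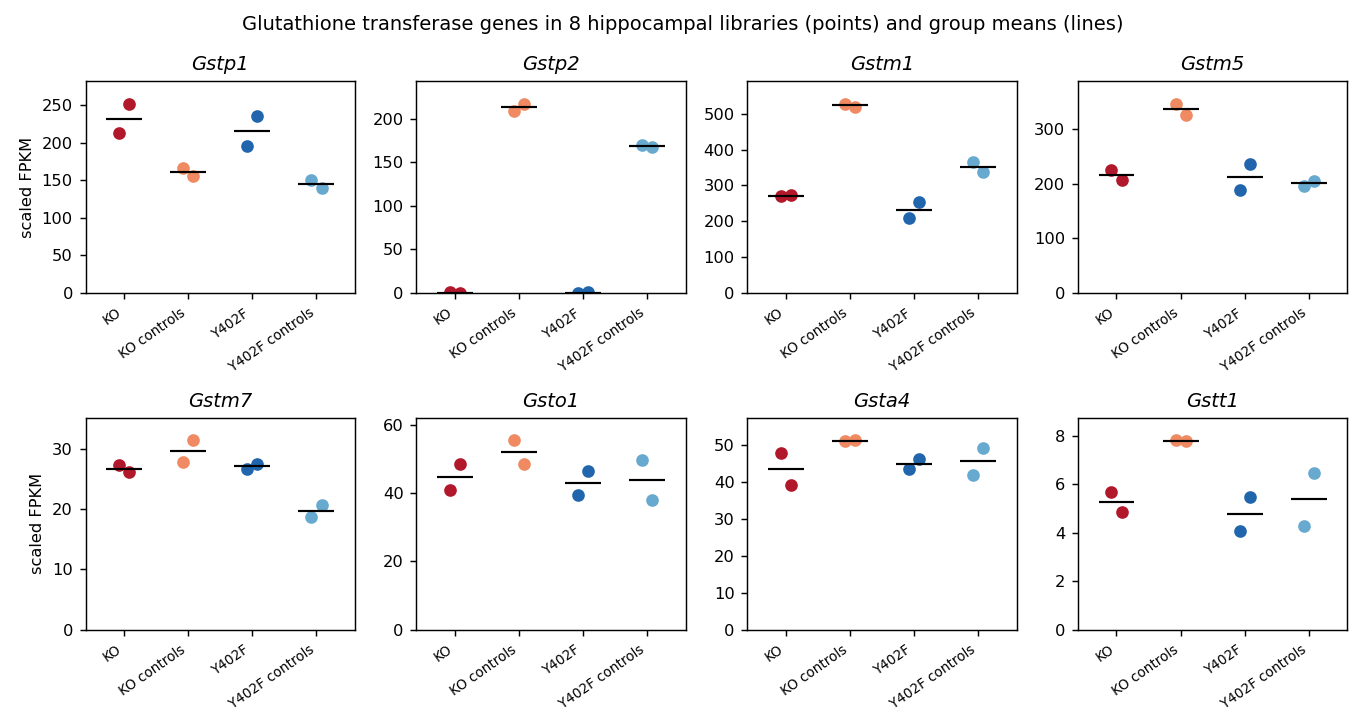
Scaled FPKM (vertical axes, each from 0) of the 8 genes in KO, KO controls, Y402F and Y402F controls; points are libraries and lines are means of 2. Gstp1 was higher in each mutant library than in any control, Gstp2 lay under 1 in the mutants and at 168 to 217 in the controls, and the KO controls held the highest mean of Gstm1, Gstm5, Gstm7, Gsto1, Gsta4 and Gstt1.

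Gstp1, the main Pi class enzyme of the mouse, was at 213 and 252 scaled FPKM in KO and at 196 and 236 in Y402F. In the KO controls it was at 166 and 156, and in the Y402F controls at 150 and 140. The mutant libraries stood above all 4 control libraries and overlapped with each other. The means were 233 ± 27.9 for KO, 216 ± 28.2 for Y402F, 161 ± 7.52 for KO controls and 145 ± 7.01 for Y402F controls (SD, n = 2). The order was therefore KO, Y402F, KO controls and Y402F controls, and KO and Y402F did not differ beyond their spread. The log2 difference from the own controls was 0.52 (SE 0.12) in KO and 0.57 (SE 0.12) in Y402F.

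Gstp2, whose product is the nearest relative of Gstp1, showed the opposite and a far larger contrast. It was at 0.733 and 0 in KO and at 0 and 0.761 in Y402F. In the KO controls it was at 209 and 217 (213 ± 6.02, SD, n = 2), and in the Y402F controls at 170 and 168 (169 ± 1.06, SD, n = 2). No mutant library came near a control. The mutant values rest on 3.07 and 0 expected counts in KO and 0 and 3.29 in Y402F, so no fold is given. The 2 genes together summed to 843 and 1019 expected counts in KO and to 776 and 971 in Y402F, which are whole within 0.005, while the single values of 839.93 for Gstp1 and 3.07 for Gstp2 in KO replicate 1 are not.

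Gstp1 held 99.7 to 100% of the Pi sum in the 4 mutant libraries and 41.7 to 47.0% in the 4 controls. The sum of both genes is free of any division between them. It was at 214 and 252 in KO, 196 and 237 in Y402F, 375 and 373 in KO controls and 320 and 308 in Y402F controls. In the sum the mutants lay below the controls, the reverse of Gstp1 alone, with means of 233 ± 27.4 (KO), 217 ± 28.8 (Y402F), 374 ± 1.5 (KO controls) and 314 ± 8.06 (Y402F controls; SD, n = 2). KO was at 62.3% of its controls (log2 difference -0.69, SE 0.11) and Y402F at 69.0% (-0.54, SE 0.11). The control tables also list Gstp-ps, at 90.3 and 89.6 in KO controls and 76.3 and 74.3 in Y402F controls, and the mutant tables have no entry for it. With the pseudogene added, the totals of the controls were 464 ± 2.0 and 389 ± 9.51 (SD, n = 2), and the differences moved to -1.0 in KO and -0.85 in Y402F. Whether the division of reads accounts for the Gstp1 and Gstp2 contrast was not tested, since reads were not analysed here.

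**Figure D2:**
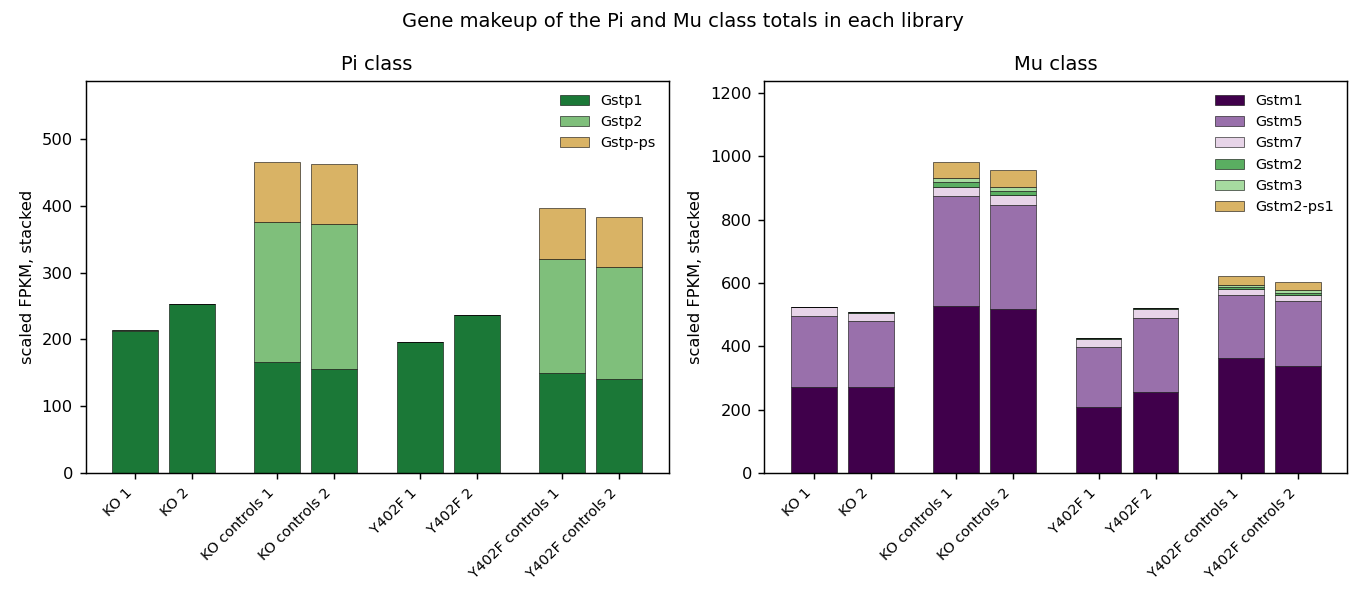
Stacked scaled FPKM (vertical axis) of the Pi class genes with Gstp-ps (left) and of 5 Mu class genes with Gstm2-ps1 (right) in each of the 8 libraries. In the mutants the Pi bar is Gstp1 alone to within 0.343%, whereas Gstp1 holds 41.7 to 47.0% of the Gstp1 and Gstp2 sum in the controls; the pseudogenes appear only in control tables.

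Gstm1, an abundant Mu class enzyme, was at 270 and 272 scaled FPKM in KO and at 209 and 254 in Y402F. It was at 528 and 519 in the KO controls and at 364 and 338 in the Y402F controls. No groups overlapped, and the order ran from KO controls (523 ± 6.13) through Y402F controls (351 ± 18.9) and KO (271 ± 1.32) to Y402F (232 ± 32.0; SD, n = 2). KO and Y402F stood closest, with the KO libraries above both Y402F libraries. KO was at 51.9% of its controls (log2 difference -0.94, SE 0.10) and Y402F at 66.0% of its own (-0.60, SE 0.10). Gstm2-ps1, the Gstm1 pseudogene, was at 51.5 and 52.6 in KO controls and at 28.7 and 26.2 in Y402F controls, and mutant tables have no entry for it. It is small beside Gstm1, in contrast to Gstp-ps beside the Pi genes.

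Gstm5 was at 225 and 206 in KO, 187 and 236 in Y402F, 346 and 326 in KO controls and 197 and 205 in Y402F controls. Only the KO controls stood apart, at 336 ± 14.1 (SD, n = 2). KO (216 ± 13.4), Y402F (212 ± 34.5) and Y402F controls (201 ± 6.05; SD, n = 2) did not differ beyond their spread. KO was at 64.1% of its controls (log2 difference -0.64, SE 0.11), while Y402F was at 105% of its own (0.07, SE 0.11).

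Gstm7 was at 27.3 and 26.1 in KO, 26.7 and 27.5 in Y402F, 27.8 and 31.3 in KO controls and 18.6 and 20.6 in Y402F controls. Here the Y402F controls stood apart and were the lowest, at 19.6 ± 1.45 against 26.7 ± 0.827 in KO, 27.1 ± 0.553 in Y402F and 29.6 ± 2.54 in KO controls (SD, n = 2). KO and Y402F overlapped. KO was at 90.3% of its controls (log2 difference -0.14, SE 0.12) and Y402F at 138% of its own (0.45, SE 0.12).

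The Mu sum of Gstm1, Gstm5 and Gstm7 was at 523 and 505 in KO, 423 and 518 in Y402F, 902 and 877 in KO controls and 579 and 563 in Y402F controls. The KO controls lay far above the other 6 libraries, and KO and Y402F overlapped. KO was at 57.8% of its controls (log2 difference -0.79, SE 0.10) and Y402F at 82.4% (-0.29, SE 0.10). Gstm1 made up 49.1 to 54.0% of the sum in the mutants and 58.5 to 62.9% in the controls, and Gstm5 40.8 to 45.6% and 33.9 to 38.4%.

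The remaining members lay within narrower limits. Gsto1, whose enzyme also reduces dehydroascorbate, was at 40.9 and 48.5 in KO, 39.4 and 46.6 in Y402F, 55.5 and 48.7 in KO controls and 49.7 and 38.0 in Y402F controls. The KO controls lay above KO and Y402F, by little in the case of KO (log2 difference -0.22, SE 0.16), and the Y402F controls overlapped with every other group. Gsta4, whose enzyme conjugates the lipid peroxidation product hydroxynonenal, was at 47.6 and 39.2 in KO, 43.6 and 46.1 in Y402F, 50.9 and 51.2 in KO controls and 41.9 and 49.1 in Y402F controls. The KO controls were the highest group and the other 3 overlapped. Gstt1, of a class that acts on small halogenated compounds, was at 5.67 and 4.85 in KO, 4.07 and 5.46 in Y402F, 7.80 and 7.79 in KO controls and 4.28 and 6.47 in Y402F controls. Again only the KO controls were clear of the others, with log2 differences of -0.49 (SE 0.21) for KO against them and -0.14 (SE 0.21) for Y402F against its controls.

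**Figure D3:**
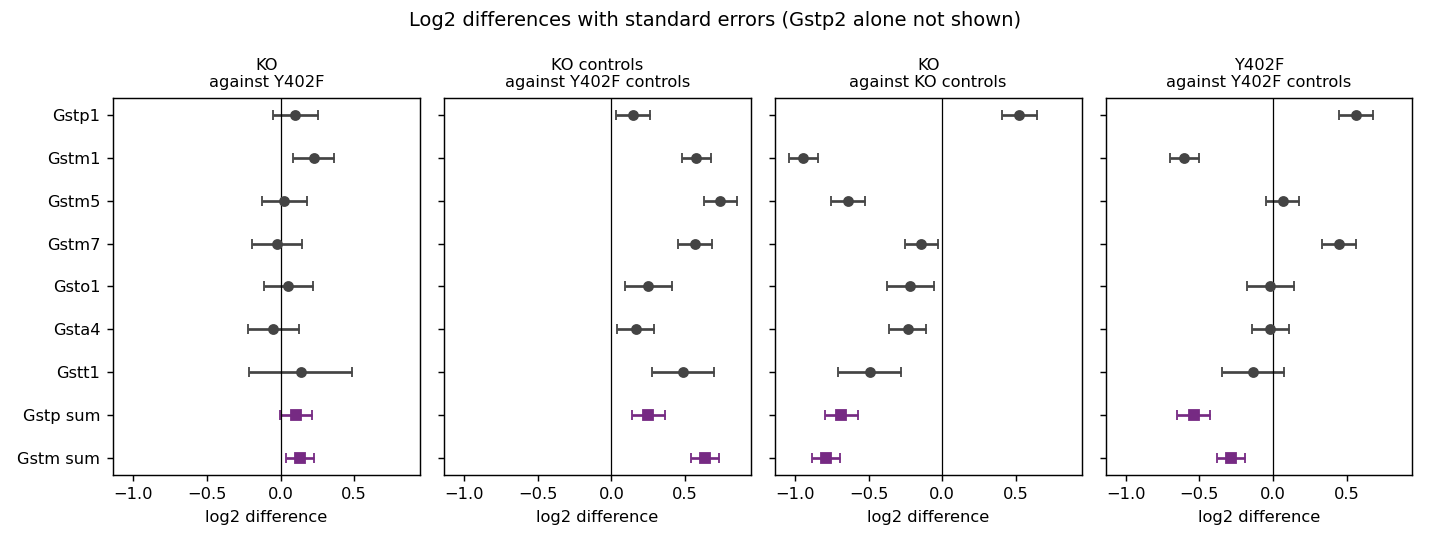
Log2 differences (horizontal axes; points, with bars of 1 SE) of 7 genes and of the Pi (Gstp1 and Gstp2) and Mu (Gstm1, Gstm5 and Gstm7) sums in 4 comparisons. In KO against Y402F the 7 genes lie between -0.05 and 0.23; against the controls Gstp1 lies to the right of 0 (0.52 and 0.57) and the Pi sum to the left (-0.69 and -0.54).

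The comparison of KO with Y402F sets a knockout of Pyk2 beside a substitution at its autophosphorylation residue, and it lies within tables of one kind. Among the members Gstm1 differed most. In edgeR's quasi-likelihood fit of the expected counts the log2 differences were 0.23 (SE 0.14) for Gstm1, 0.14 (SE 0.35) for Gstt1, 0.10 (SE 0.15) for Gstp1 and between -0.05 and 0.05 for the other 5. The value of Gstp2 (0.01, SE 1.64) says little, since it rests on at most 3.29 expected counts. In limma's fit of the FPKM Gstm1 differed by 0.23 with a smaller SE of 0.098. Of the 8 genes 0 passed an adjusted p of 0.05, against 0.00773% of all genes tested. In edgeR 0 of them had an unadjusted p under 0.05, as had 248 of the 12934 genes tested. DESeq2 and limma also called 0 of the 8. Only Gstm1 had libraries that did not overlap, with KO higher, which 12.8% of all genes showed, and 12.9% had KO lower. The sums differed by 0.10 (Pi, SE 0.11) and 0.13 (Mu, SE 0.10). Without Y402F replicate 1, whose Pi and Mu sums were the lowest of the 4 mutant libraries, both turned slightly negative, to -0.031 and -0.012. Replicate 1 of both groups was low and replicate 2 of both was high in Ddx3y, so leaving out 1 library leaves the groups unequal in that pattern. Among the Ddx3y-low libraries the Pi sum was 214 in KO and 196 in Y402F, and among the Ddx3y-high ones 252 and 237. The Mu sum was 523 against 423 in the first pair and 505 against 518 in the second.

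The wild-type pairs were also compared within tables of one kind, and here the members were higher in the KO controls. All 8 log2 differences were positive, with a median of 0.41 against -0.02 over all genes tested. The largest were those of Gstm5 (0.74, SE 0.11), Gstm1 (0.58, SE 0.10) and Gstm7 (0.57, SE 0.12). Gstt1 followed at 0.48 (SE 0.21), Gstp2 at 0.33 (SE 0.30), Gsto1 at 0.25 (SE 0.16), Gsta4 at 0.17 (SE 0.12) and Gstp1 at 0.15 (SE 0.12). Of the 8, the 3 Mu genes passed limma's threshold and 0 were lower, where 7.97% of all genes passed, 4.82% as higher and 3.15% as lower. Libraries did not overlap for 7 of the 8, with Gsto1 the exception, and 28.1% of all genes had both KO controls above both Y402F controls and 30.9% below. The Mu sum differed by 0.64 (SE 0.10) and the Pi sum by 0.25 (SE 0.11). With 1 of these 4 libraries left out, 1 member passed without KO control replicate 2 (Gstm5) and 0 passed without each of the other three. With a term for the Ddx3y pattern the 3 members that passed were Gstm1, Gstm5 and Gstp1, so Gstm7 was lost and Gstp1 gained. Both KO controls had low and both Y402F controls high Ddx3y, so line and the Ddx3y pattern cannot be told apart within the pairs. The size of the term was therefore set by the mutant replicates alone, which in Y402F also differed in Ttr (2.23 and 656).

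The members are short transcripts, and short transcripts as a whole differed between the pairs. In the mutant tables the 8 transcripts were 744 to 1339 bases long. Over the 877 tested genes of 500 to 1000 bases the median log2 difference between KO controls and Y402F controls was 0.32, over the 2868 of 1000 to 2000 bases 0.15, and over the 3745 longer than 4000 bases -0.19. Gstp1 (0.15) and Gsta4 (0.17), at 744 and 970 bases, thus lay below the median of genes of their length, and Gstm5 (0.74, at 911 bases) and Gstm1 and Gstm7 (at 1310 and 1339 bases) above it. After the trend over length was removed, a choice made after the data were seen, the Mu sum differed by 0.44 and the Pi sum by -0.045, and Gstm1 and Gstm5 still passed the threshold. The part of transcript length in these differences was otherwise not tested.

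**Figure D4:**
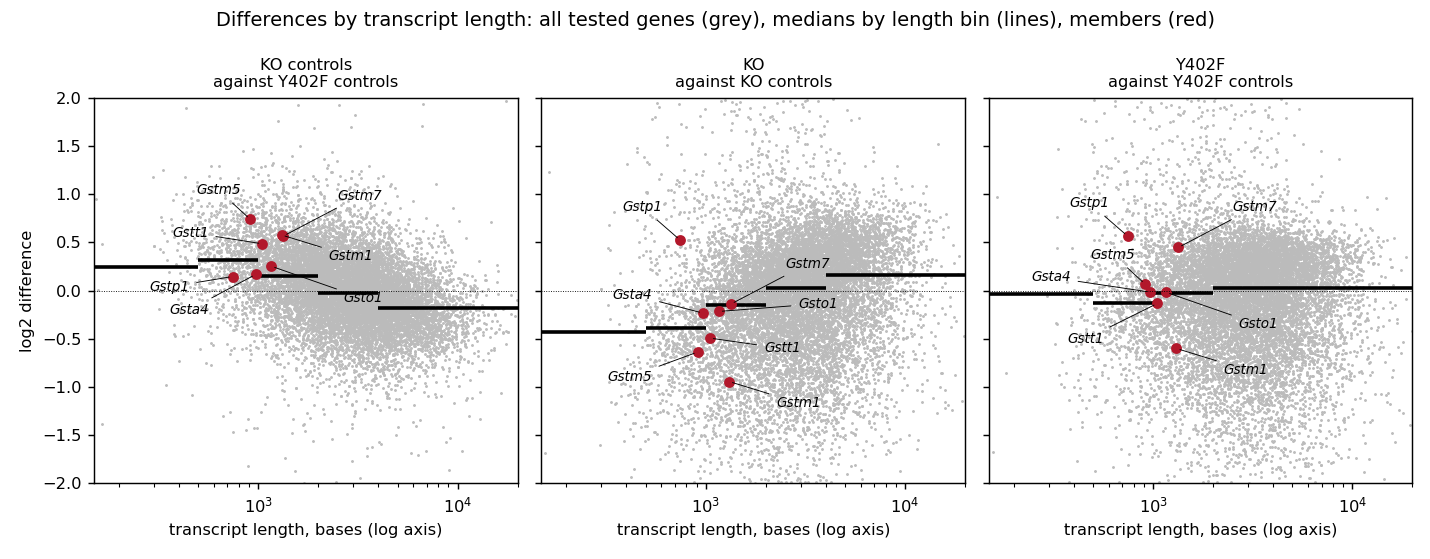
Log2 difference (vertical axis, shown from -2 to 2) against transcript length in bases (log axis) in 3 comparisons, with all tested genes in grey (57, 344 and 329 lie outside the axis), medians of 5 length bins as black lines and the members except Gstp2 in red. Short genes tend upward in KO controls against Y402F controls (median 0.32 at 500 to 1000 bases) and downward in KO against KO controls (-0.39), and Gstp1 lies above its bin in both mutant comparisons.

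Against their own controls, the knockouts had Gstp1 higher and the others lower, with no overlap between the libraries of any member. Gstp2 passed the filter through the controls alone, which fixed its direction, so it is left out of the counts against controls. Of the other 7, 6 were separate as lower and 1 as higher, as were 35.4% and 35.6% of all genes, so separation of 2 libraries from 2 is common here. Of these 7, 3 passed limma's threshold, Gstm1 and Gstm5 as lower and Gstp1 as higher, beside 37.6% of all genes tested (21.0% as lower and 16.6% as higher). The median over the 7 was -0.23 and over all genes 0.00. Gstp1 no longer passed without KO replicate 2 or without KO control replicate 2. Genes of 500 to 1000 bases had a median of -0.39 and those of 1000 to 2000 bases -0.15. Gstm1 (-0.94, at 1310 bases) was lower and Gstp1 (0.52, at 744 bases) higher than these.

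In Y402F against its controls the members were more mixed. Libraries were separate for Gstp1 and Gstm7, which were higher, and for Gstm1, which was lower (Gstp2 again set aside), where 34.5% of all genes were separate as higher and 34.1% as lower. These 3 of the 7 passed limma's threshold, beside 32.3% of all genes (13.0% as higher and 19.3% as lower). The call of Gstm7 was absent without scaling and without Y402F replicate 1, Y402F replicate 2 or Y402F control replicate 1. The median over the 7 was -0.017, against 0.00 over all genes, and genes of 500 to 1000 bases had a median of only -0.12. The Mu sum (-0.29) moved to -0.14 without Y402F replicate 1, to -0.074 with quantile normalization and to -0.44 without scaling.

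Subtracting the Y402F effect from the KO effect cancels what processing does alike in both lines. Gstp2 was near 0 in both mutants, so its value here mostly repeats the difference between the control pairs, and it is again set aside. The other 7 members all had a more negative value in KO, from -0.04 (Gstp1, SE 0.17) to -0.71 (Gstm5, SE 0.16). Their median was -0.34, against 0.02 over all genes. In limma 0 of the 7 passed the threshold, which 0.0309% of all genes did. With Gstp2 counted, 3 of the 8 members had an unadjusted p under 0.05, as had 1682 of the 12938 genes tested. The Mu sum differed by -0.50 (SE 0.14) and the Pi sum by -0.15 (SE 0.16). Each of these values equals the difference of KO from Y402F less the difference between the control pairs, so they hold no libraries that the comparisons above lack. After removal of the length trend they were -0.34 for the Mu sum and 0.10 for the Pi sum.

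Of 19 other genes listed for the glutathione transferase family, 17 were in the joined table and 12 were abundant enough to test. Between KO and Y402F 0 of the 11 tested by edgeR passed, and DESeq2 and limma also called 0. In edgeR 2 of the 11 had an unadjusted p under 0.05, as had 248 of all 12934 genes tested. Mgst3, a microsomal enzyme and the most abundant of this list, was at 94.0 and 81.9 in KO, 64.9 and 72.8 in Y402F, 49.5 and 54.4 in KO controls and 40.6 and 37.1 in Y402F controls. It rose in both mutants, by 0.75 in KO (SE 0.11, limma adjusted p = 0.00141) and 0.81 in Y402F (SE 0.11, limma adjusted p = 0.00104), in the direction of Gstp1 and against that of Gstm1. Mgst1, its microsomal relative, fell by 0.99 in KO (SE 0.22, limma adjusted p = 0.00798) and by 1.2 in Y402F (SE 0.22, limma adjusted p = 0.00377). The KO value was lost without KO replicate 2 (limma adjusted p = 0.0644).

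Gstm2 and Gstm3, which sit beside Gstm1 on chromosome 3, were low in the mutants. Gstm3 was at 0 in both KO libraries, at 0.0635 and 0 in Y402F, at 13.0 and 12.5 in KO controls and at 7.59 and 8.15 in Y402F controls, so no fold is given, and since it passed the filter through the controls alone no p is given either. Like Gstp2, it shares sequence with a more abundant neighbour, and it had 0.4 expected counts in 1 mutant library and 0 in the rest. Gstm2 was at 1.01 and 2.45 in KO, 2.68 and 3.70 in Y402F, 15.3 and 13.0 in KO controls and 6.37 and 6.21 in Y402F controls. It fell by 2.52 in KO on the log2 scale (SE 0.26, limma adjusted p = 0.000193), where it rests on 6.06 and 15.14 expected counts. Its differences of -0.81 in Y402F (limma adjusted p = 0.0459) and of 1.05 between the control pairs (limma adjusted p = 0.0476) passed narrowly, and both lost the threshold with any 1 library of their groups left out and with quantile normalization (limma adjusted p = 0.0595 and 0.0577). With all Mu class genes added, the totals were 534 ± 8.62 (KO), 489 ± 71.3 (Y402F), 940 ± 20.9 (KO controls) and 604 ± 10.4 (Y402F controls; SD, n = 2). In Y402F the Theta class gene Gstt2 (log2 difference -1.48, SE 0.28, limma adjusted p = 0.00481, on only 5 and 4 expected counts) and Hpgds, the hematopoietic prostaglandin D synthase (-1.08, SE 0.28, limma adjusted p = 0.0185), also fell. The second lost the threshold without Y402F replicate 1, Y402F replicate 2 or Y402F control replicate 2. In limma's test of the difference between the KO and Y402F effects 0 of the 12 passed. There 4 of the 12 had an unadjusted p under 0.05, as had 1682 of all 12938 genes tested.

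Genes that make, recycle and use glutathione had no call between KO and Y402F (0 of 24 by edgeR, DESeq2 and limma, and 0 at an unadjusted p under 0.05 in edgeR). Between the control pairs 1 of 24 rose in KO controls and 0 fell (median 0.16), the cystine transporter gene Slc7a11 (0.42, SE 0.11, limma adjusted p = 0.0497), and without any 1 of the 4 libraries it did not pass. Against controls 2 rose and 9 fell in KO, and 2 rose and 7 fell in Y402F. These calls are 45.8% of the list in KO, where 37.6% of all genes were called, and 37.5% in Y402F, where 32.3% were. Slc7a11 was the extreme, at 79.2 and 86.2 in KO and 75.6 and 81.5 in Y402F against 11.8 and 11.6 in KO controls and 8.32 and 8.74 in Y402F controls (log2 differences 2.71 and 3.06, SE 0.11 each, limma adjusted p = 9.78e-07 and 6.72e-07). The glutaredoxin genes Glrx2 (-1.81 in KO and -1.26 in Y402F) and Glrx3 (-0.98 and -0.89) and the glutathione-binding Lancl1 (-1.18 and -1.2) fell in both, with limma adjusted p-values between 4.50e-05 and 0.00067. The medians of the list were -0.20 in KO and -0.03 in Y402F.

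Peroxidases and their partners remove peroxides with glutathione or thioredoxin. Between the control pairs 5 of 18 rose in KO controls and 0 fell (median 0.33), beside 4.82% and 3.15% of all genes. They included Prdx2 (0.82), the glutathione peroxidases Gpx1 (0.62) and Gpx4 (0.58), and Prdx5 (0.54), with limma adjusted p-values of 0.0132 to 0.0433. As with the members, fewer passed with 1 library left out, between 0 and 1 of 18. In KO 0 rose and 8 fell (median -0.35), where 16.6% of all genes rose and 21.0% fell. The 8 included Txn2 (-1.44), Gpx1 (-1.22), Prdx6 (-1.40) and Prdx1 (-0.92, limma adjusted p of these 4 between 6.32e-05 and 0.00082). In Y402F 1 rose, Prdx2 (0.43, limma adjusted p = 0.0281), and 6 fell (median -0.068), where 13.0% of all genes rose and 19.3% fell. Between KO and Y402F 0 of 18 passed in edgeR, DESeq2 or limma, and 0 had an unadjusted p under 0.05 in edgeR (median 0.11).

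Regulators and targets of Nrf2 gave no single direction among the calls against controls. Between the control pairs 14 of 16 had a positive difference (median 0.19). In KO controls 2 of 16 rose and 0 fell, beside 4.82% and 3.15% of all genes. Those 2 were the ferritin gene Fth1 (0.60, limma adjusted p = 0.0114) and Taldo1 (0.97, limma adjusted p = 0.0114). For the KO effect less the Y402F effect 4 of 16 were positive (median -0.17) and 0 passed. In KO 2 rose and 3 fell (31.2% of the list, against 37.6% of all genes), and in Y402F 5 rose and 2 fell (43.8%, against 32.3%). The pentose phosphate enzyme gene Tkt fell in both (-1.10 and -1.07, limma adjusted p = 0.000499 and 0.000614), and the NADPH-producing malic enzyme gene Me1 rose in both (0.69 and 0.86, limma adjusted p = 0.00586 and 0.00224). Fth1 fell in both mutants (-1.10 and -0.62). With quantile normalization its difference was 0 in these comparisons and between the pairs. That setting gives the same value to a gene of the same rank in every library, so it cannot decide whether Fth1 differed. The antioxidant response core TGACNNNGC was searched on both strands in windows of 300 bases around gene starts of RefSeq (GRCm38.p6). It occurred for 2 of the 7 members that have such windows, Gstm5 and 1 of the starts of Gstm7. Among all 32851 windows 12.4% held it, which is a share of windows and not of genes. The windows of Gstp1 and Gstp2 lack it but hold TGAGTCAGC, which differs from this core at 1 base. Variants of the core were not searched.

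Cell type markers were read beside the members. Neuron, astrocyte and oligodendrocyte markers were all detected, as hippocampal tissue contains. The summed level of the 12 astrocyte markers was 1835 to 2002 in the mutants, 3039 and 3170 in KO controls and 2363 and 2332 in Y402F controls. Aldoc made up much of this sum. Without it, a choice made after the values were seen, the sum was 1523 to 1642 in the mutants, 1619 and 1697 in KO controls and 1415 and 1410 in Y402F controls, so that the KO controls overlapped with the mutants and the Y402F controls were lowest. Between the control pairs 7 of the 12 astrocyte markers had a positive difference, the direction of the members, and the median was 0.18. Of the 12, 4 rose in KO controls and 0 fell, beside 4.82% and 3.15% of all genes. The markers with a negative difference, Slc1a2, Slc1a3, Gja1, Aqp4 and Sox9, were at 76.3 to 86.6% of the Y402F controls in the KO controls. That direction is opposite to the members. Aldoc fell in both mutants (-1.99 and -1.51, limma adjusted p = 6.89e-07 and 2.71e-06) and rose in KO controls against Y402F controls (0.63, limma adjusted p = 0.011), the last of which was lost with quantile normalization (limma adjusted p = 0.0561). In KO 3 of the 12 astrocyte markers rose, the glutamate transporter gene Slc1a3 among them (0.38, limma adjusted p = 0.00503), and 5 fell. The summed level of the 10 oligodendrocyte markers was 2701 to 3549 in the mutants, 4477 and 4602 in KO controls and 2916 and 2942 in Y402F controls, whereas the Pi sum was higher in both control groups than in the mutants. In KO 3 of 10 oligodendrocyte markers rose and 3 fell. Of 9 neuron markers tested 7 rose and 1 fell in KO, and 3 rose and 1 fell in Y402F, with summed levels of 3777 to 3921 in the mutants and 3042 to 3193 in the controls. Of all genes, 16.6% rose and 21.0% fell in KO, and 13.0% rose and 19.3% fell in Y402F. Choroid plexus and ependyma markers summed to 1149 and 1172 in the Y402F controls and to 756 in Y402F replicate 2, while the other 5 libraries lay at 44.6 to 63.1. Blood markers were higher in KO controls than in Y402F controls (4 of 5), as were 3 of 9 microglia markers, beside 4.82% of all genes. The part of cell composition in the member values was not tested.

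The genes whose log2 levels ran most closely parallel to the Pi sum over the 8 libraries were Apbb1 (Pearson r = 0.995), Desi1 (0.994), Thra (0.992), the peroxiredoxin gene Prdx6 (0.991) and Psd (0.991). For the Mu sum they were Tmem256 (0.997), the respiratory chain genes Uqcr11 (0.997) and Sdhc (0.990), the ubiquitin-like Nedd8 (0.990) and Cops9 (0.990). Thra, for example, was at 408 and 466 in KO, 394 and 478 in Y402F, 713 and 716 in KO controls and 593 and 572 in Y402F controls. Uqcr11 was at 218 and 216 in KO, 187 and 213 in Y402F, 383 and 367 in KO controls and 241 and 241 in Y402F controls. These r values are the highest among the tested genes that were kept for this ranking. Left out were Gst genes, pseudogenes, mitochondrial genes, microRNA and small nucleolar RNA genes, and provisional symbols such as those of the Gm and Rik forms. The 8 points share processing, length trend and group means, so the r values describe likeness in these libraries only.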

How the data were processed

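The 8 genes, the gene lists and the comparisons were chosen with earlier results of these data known. Per the file headers, the deposited mutant tables list, by Entrez identifier, each gene above 0 with its expected count, its FPKM and a transcript length. The authors' control tables hold FPKM with confidence bounds for Ensembl genes, per the file headers. The submitters' processing notes name Bowtie 1, HISAT and mm9 for every sample, and Cufflinks for controls, without their roles, although the gene positions in the control tables match GRCm38. Use of strand in counting is not given here. For KO replicate 1 the authors' FPKM of Gstp1 rests on about 840 expected counts, and the counting error of that value was not computed.

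From the mutants, 18022 genes were listed and 17652 of them joined to control genes, 17594 by symbol and 58 by synonym, and 41 repeated control identifiers were left out. Size factors of the median-of-ratios kind scaled the FPKM. A mean FPKM of 1 or more was required for the test with limma 3.58.1 (intensity trend) on log2(scaled FPKM + 1), which understates changes of low genes, fitted to all 8 libraries (4 groups, 4 residual degrees of freedom). For KO against Y402F, edgeR 4.0.16 ran its quasi-likelihood test on rounded expected counts (TMM scaling) with 2 residual degrees of freedom, and DESeq2 1.42.0 was an alternative. P-values were adjusted by Benjamini and Hochberg over all genes, with a threshold of 0.05. Both tests were tested on simulated data.

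Besides the members, the text names called genes of fixed lists (at most the 4 with the smallest p per list and comparison), the other Gst genes, and the 5 genes most correlated with each sum after the exclusions given above. Of the called genes of the astrocyte list, only Aldoc, Slc1a3 and S100b are given. Genes of that list with a negative difference between the control pairs are also named. Replicate numbers are not taken to pair libraries: the correlation of deviations from the group means was 0.20 between KO and Y402F and -0.03 to 0.05 between the other groups. Alternatives covered the pseudocount, scaling, filter, replicate block, a term for the Ddx3y pattern, the test, and each library left out. Sequences and positions come from GENCODE M21 (GRCm38). Protein sequences were not used here. Other software was Biopython 1.88, matplotlib 3.10.9, numpy 2.4.6, pandas 2.3.3, Python 3.11.15 and R 4.3.3.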

Additional observations from a re-analysis of the deposited data

Results flagged for a closer look

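Gstm7 moved in opposite directions in the 2 lines. Both KO libraries (27.3 and 26.1 scaled FPKM) lay below both KO controls (27.8 and 31.3), and both Y402F libraries (26.7 and 27.5) lay above both Y402F controls (18.6 and 20.6). The KO effect less the Y402F effect was -0.59 on the log2 scale (SE 0.16). In limma's fit over all genes this difference did not pass the threshold, and no p is given since the gene was chosen with results of these data known. The libraries of KO and Y402F overlapped, and the 2 control lines also differ in the Ddx3y pattern. The KO side is narrow, with 27.3 in the higher KO library against 27.8 in the lower KO control.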

How the results depend on the processing

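Values are log2 differences of the Pi and then the Mu sum unless calls are named. Without scaling they were -0.83 and -0.93 in KO and -0.69 and -0.44 in Y402F. With quantile normalization they were 0.10 and 0.49 between the control pairs, -0.43 and -0.44 in KO, -0.40 and -0.074 in Y402F, and the Mu sum -0.37 in the effect difference. With pseudogenes the Pi sum was -1.0 in KO and -0.85 in Y402F. A term for the Ddx3y pattern, its size set by the mutant libraries alone, gave 0.51 and 0.76 between the control pairs. It gave -0.40 and -0.62 in the effect difference, with 139 calls against 4, and 4 calls between KO and Y402F against 1. With the length trend removed, an alternative chosen after seeing the data like the pseudogene sums, they were -0.045 and 0.44 between the pairs, with 581 calls against 1031, -0.33 and -0.54 in KO, and 0.10 and -0.34 in the effect difference. Without the filter the calls were 513 between the pairs and 7 in the effect difference. Between KO and Y402F, DESeq2 and its size factors in edgeR each called 2 genes and limma 5. The cause of these shifts was not tested.

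With each library left out in turn, the sums ranged from -0.031 to 0.24 and from -0.012 to 0.28 between KO and Y402F, from -0.67 to -0.40 and from -0.43 to -0.14 in Y402F, and from -0.28 to -0.012 and from -0.65 to -0.36 in the effect difference. Calls ranged from 16 to 34 between KO and Y402F, from 169 to 272 between the pairs, from 3090 to 3579 in KO against 4868, and from 6 to 15 in the effect difference. A lone library left in a group is assumed to vary like the others.

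With a replicate block the calls were 4 between KO and Y402F, where it equals the Ddx3y term. It left the sums as they were, and 2 calls of single genes were lost, those of Slc7a11 and the astrocyte marker S100b between the pairs (limma adjusted p = 0.0511 and 0.0503). Single genes gave 1058 alternative values, for the members, the called results of other Gst genes and up to 4 called genes of each of 4 lists. Of these, 878 kept their direction and side of the threshold or their value within 1 SD. Another 92 moved, 88 lost the threshold and 0 reversed, where reversal was recorded only for called results. Members were judged by their value alone. The calls that members lost, given above, are therefore not among the 88, and a member counted as kept may have lost its call. Apart from these, 48 uncalled results of other Gst genes gave 565 alternative values. Of these, 41 changed sign, and 6 calls appeared in an alternative. In the mutants Gstp2 and Gstm3 rest on at most 3.29 and 0.4 expected counts, and the depth of the controls is unknown.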
